A study of Mus musculus with 12 samples.

Results

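The genes described here are 10 members of the bone morphogenetic protein (BMP) pathway in mouse fetal membranes, which wrap the developing fetus. They are the ligands Bmp2, Bmp4, Bmp5 and Bmp7, the receptors Bmpr1a and Bmpr2, the target genes Id1, Id2 and Id3, and the inhibitory Smad gene Smad6. They were chosen by name, as the rows of the count table whose Ensembl gene carries one of these mouse symbols. All 10 were found among 48795 genes, and all 10 were among the 18153 genes with enough counts to be tested. RNA was sequenced from 12 libraries in 4 groups of 3. The groups were E12 DKO and E12 WT (embryonic day 12), and E18 DKO and E18 WT (embryonic day 18). DKO stands for a double knockout of biglycan (Bgn) and decorin (Dcn), small proteoglycans of the collagen matrix, with the strain given as C3H and C57BL/6. The labels do not say whether the deletions act in all cells. WT stands for wild type on C3H, so that genotype and strain cannot be told apart. The study asked how loss of both proteoglycans alters the membrane transcriptome at each day, in a model of preterm birth.

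BMP ligands are secreted dimers that bring together a type I receptor kinase, such as Bmpr1a, and a type II receptor kinase, such as Bmpr2. The type I receptor then phosphorylates Smad1, Smad5 and Smad9, which join Smad4 and switch on target genes, among them Id1, Id2, Id3 and Smad6. Id proteins hold basic helix-loop-helix factors away from DNA, and Smad6 feeds back on the receptors. In the mouse embryo Bmp2 and Bmp4 are needed for the extraembryonic mesoderm and the amnion, and biglycan is known to bind Bmp4.

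Libraries held 19967593 to 33065424 counts each, and the lowest count of any of the 10 genes was 50, for Bmp5. Bgn averaged 15.7 ± 1.13 CPM (counts scaled to a common TMM library size) in E12 DKO and 438 ± 219 CPM in E12 WT (SD, n = 3 each). It averaged 24.5 ± 0.62 CPM in E18 DKO and 281 ± 86.7 CPM in the libraries with the label E18 WT. Dcn averaged 7.10 ± 1.27 CPM in E12 DKO and 441 ± 282 CPM in E12 WT, and 5.22 ± 0.86 CPM in E18 DKO and 509 ± 413 CPM in the same E18 WT libraries. Both targeted genes thus bore out the genotype labels. The tissue label was met by visceral yolk sac endoderm, whose marker Afp lay between 39239 and 107539 CPM in all 12 libraries. Amnion epithelium markers summed to 4979 to 6417 CPM in E18 DKO and 2157 to 2699 CPM in the libraries with the label E18 WT, with 4 of 10 higher and 4 lower. The list was split. Epcam, Cdh1, Krt8, Krt18 and Krt19 lay higher in E18 DKO without overlap, and Gabrp, Wnt6, Tfap2a, Tfap2c and Grhl3 lay lower without overlap (56.9% of all genes did not overlap). Krt18, the highest of them, lay at 2060 to 2883 CPM in E18 DKO and 735 to 1034 CPM in those E18 WT libraries. Gabrp lay at 0.13 to 0.22 CPM in E18 DKO and 4.52 to 269 CPM in those E18 WT libraries. The sum therefore does not stand for every marker of the list. The stage labels of WT were not borne out in the same way. The embryonic share of beta-globin counts was 1.33 to 2.67% in E18 DKO and 82.3 to 85.1% in E12 DKO, but 74.8 to 87.8% in the 3 libraries whose label is E18 WT, called E18-labelled WT from here on. Among E12 WT libraries that share was 14.8% in replicate 1 and 95.05 and 97.1% in the others. E18-labelled WT 3 held decidual and trophoblast transcripts, with summed markers at 859 CPM, against 2.03 to 103 CPM in the other 11, and mitochondrial genes took 21.2% of counts in E12 WT 3. No library was moved or dropped, and stage and genotype cannot be told apart in any comparison with E18-labelled WT. Comparisons with E12 WT may also mix stage with genotype, through E12 WT 1. Its markers of dividing cells summed to 246 CPM, against 1022 and 1065 CPM in E12 WT 2 and 3. Nothing in the labels says that replicates came from separate animals, so p-values measure only the spread between these samples.

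At E18, Id1 and Id3 rose and Bmp5 fell in DKO, whereas the other 7 genes did not pass the test. Id1 was 5.25-fold higher (4.16 to 6.64 at 1 SE), Id3 was 3.51-fold higher (2.61 to 4.73), and Bmp5 was 3.86-fold lower (2.95 to 5.05). At E12, 0 of the 10 genes passed, and Id1 lay in the opposite direction. These 3 calls of 10 at E18 stand beside 42.3% of all tested genes called in that comparison (20.5% higher and 21.8% lower), so the count is not larger than the background. At E12 the background was 0.353% of genes called by edgeR's quasi-likelihood test. In that test 3 of the 10 genes had an unadjusted p under 0.05, beside 4416 of all 18153 genes tested. The DESeq2 Wald test called 1 of the 10, Id1, beside 2073 of 18153 genes. The median log2 fold change over the 10 genes was -0.29 at E12 and -0.18 at E18, beside -0.077 and -0.044 over all genes tested. The plot of CPM by library shows all 10 genes.

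**Figure D1:**
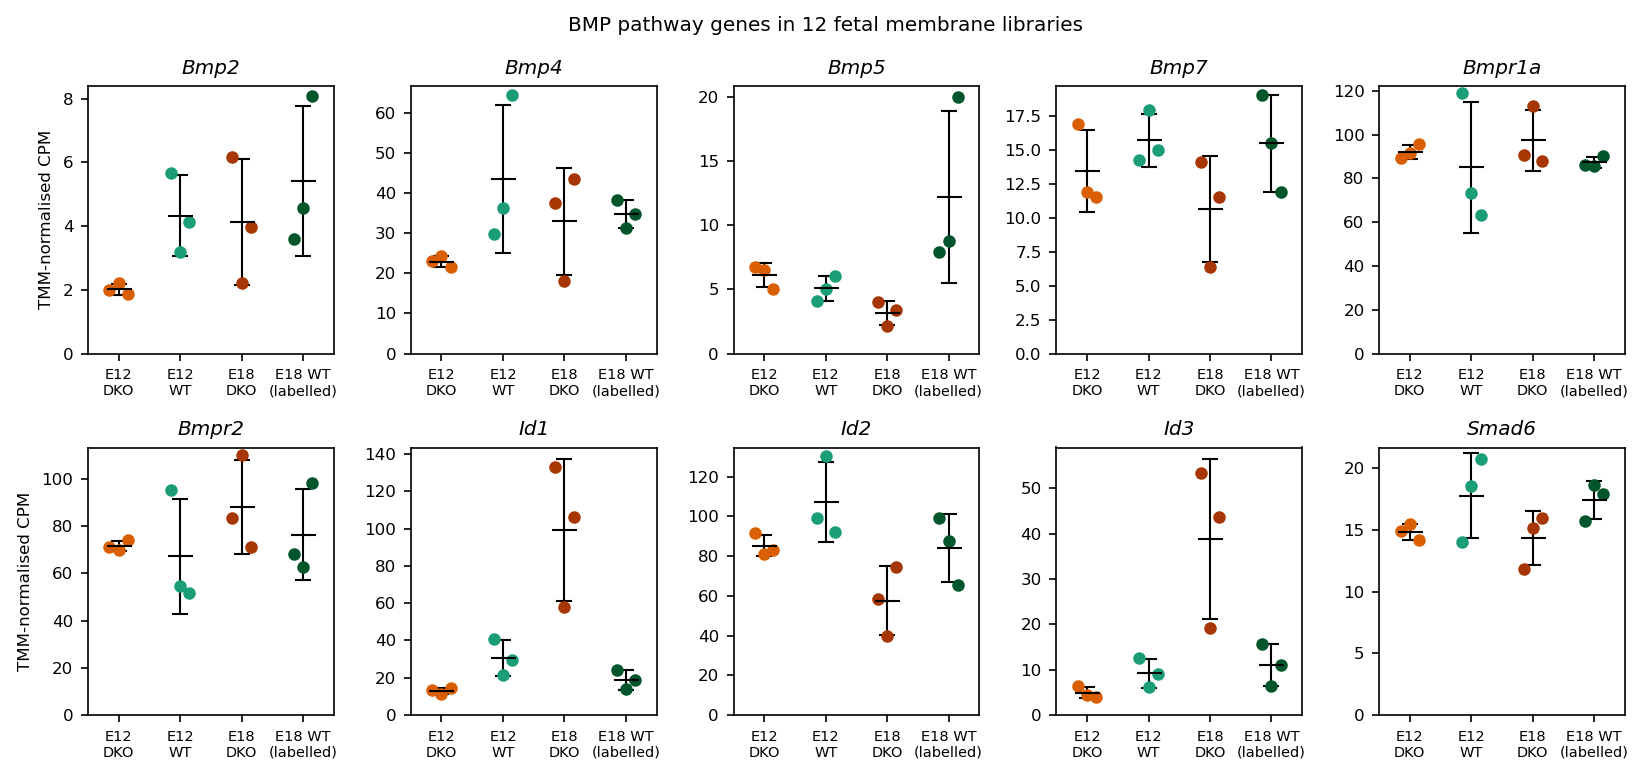
TMM-normalised CPM (y axis, from 0) of the 10 BMP pathway genes in each library, grouped by genotype and labelled day (x axis). Points are libraries, and bars give the mean and SD of 3 libraries. Id1 and Id3 lie highest in E18 DKO, and Bmp5 lies lowest in E18 DKO and highest in E18-labelled WT.

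Id1 (chromosome 2, 152736251 to 152737410, GRCm38, plus strand) encodes a helix-loop-helix inhibitor and is a standard readout of BMP signalling. Its level was 133, 58.0 and 106 CPM in E18 DKO, against 24.3, 13.7 and 18.6 CPM in E18-labelled WT. Every E18 DKO library lay above every E18-labelled WT library, and E18 DKO 2 was the lowest of its group. The log2 fold change was 2.39 ± 0.34 (SE, n = 3 per group, adjusted p = 0.00046). At E12 its level was 13.4, 11.3 and 14.2 CPM in DKO, against 40.8, 21.7 and 29.3 CPM in WT. Those groups did not overlap either, with DKO the lower, and the log2 fold change was -1.24 ± 0.33 (adjusted p = 0.0819). The adjusted p was 0.0106 by the DESeq2 Wald test, and 0.0625 by edgeR without E12 WT 1, where the log2 fold change was -0.97. Values did not overlap at E12 in 4 of the 10 genes (Id1, Id2, Bmp2 and Bmp4, all lower in DKO), and in 30.1% of all genes (14.4% lower). At E18 they did not overlap in the 3 called genes, and in 56.9% of all genes (27.8% higher and 29.1% lower).

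Id3 (chromosome 4, 136143497 to 136145755, plus strand) encodes another helix-loop-helix inhibitor and, like Id1, had its highest mean in E18 DKO and its lowest in E12 DKO. Levels were 53.4, 19.1 and 43.7 CPM in E18 DKO, against 15.6, 6.45 and 11.1 CPM in E18-labelled WT. The groups did not overlap, but E18 DKO 2 lay only a little above the highest E18-labelled WT library. The log2 fold change was 1.81 ± 0.43 (adjusted p = 0.00649). Its E12 values were 6.41, 4.47 and 3.96 CPM in DKO, against 12.6, 6.21 and 9.004 CPM in WT. The E12 groups overlapped, and the log2 fold change of -0.90 ± 0.43 did not pass (adjusted p = 0.219).

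Id2 (chromosome 12, 25093801 to 25096092, minus strand), one of a family that also responds to signals other than BMP, did not pass the test at either day. Its level stood at 58.6, 39.8 and 74.3 CPM in E18 DKO, against 99.3, 87.6 and 65.3 CPM in E18-labelled WT. The groups overlapped through E18 DKO 3 and E18-labelled WT 3, and the log2 fold change was -0.55 ± 0.24 (adjusted p = 0.085). It passed in the lower direction without either of those libraries (adjusted p = 0.032 and 0.0479). E12 levels were 91.4, 81.2 and 83.2 CPM in DKO, against 99.4, 130 and 92.1 CPM in WT. DKO lay just below WT without overlap, and the log2 fold change was -0.33 ± 0.24 (adjusted p = 0.409).

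The promoters of Id3, Id2 and Bmp5 are shown because Id3 rose, Bmp5 fell and Id2 did not pass the test at E18. Each run is the 250 bases before the RefSeq start (GRCm38.p6), 5′ to 3′ on the gene's strand. Capitals mark matches on either strand to GGCGCC, a GC-rich element bound by BMP-activated Smads, or to GTCT, the core Smad box. The windows are chr4:136143572-136143821 (plus strand) for Id3, chr12:25096093-25096342 (minus strand) for Id2 and chr9:75775115-75775364 (plus strand) for Bmp5.
Id3: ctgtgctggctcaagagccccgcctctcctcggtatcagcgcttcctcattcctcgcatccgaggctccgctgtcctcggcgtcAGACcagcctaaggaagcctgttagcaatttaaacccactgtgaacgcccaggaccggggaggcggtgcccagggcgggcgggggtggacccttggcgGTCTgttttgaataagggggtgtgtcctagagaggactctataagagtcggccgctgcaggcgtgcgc
Id2: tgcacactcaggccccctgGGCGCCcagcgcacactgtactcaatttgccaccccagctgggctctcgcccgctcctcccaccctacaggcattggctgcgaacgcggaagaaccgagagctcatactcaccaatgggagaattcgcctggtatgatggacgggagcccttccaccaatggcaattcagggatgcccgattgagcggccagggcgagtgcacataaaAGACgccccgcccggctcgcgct
Bmp5: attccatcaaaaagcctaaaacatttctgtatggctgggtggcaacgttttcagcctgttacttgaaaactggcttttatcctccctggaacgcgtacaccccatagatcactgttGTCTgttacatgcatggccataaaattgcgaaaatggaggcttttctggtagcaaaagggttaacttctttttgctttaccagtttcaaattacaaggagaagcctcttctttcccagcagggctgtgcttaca
The Id2 window held 1 GGCGCC and 1 GTCT, the Id3 window 0 and 2, and the Bmp5 window 0 and 1. Among 32851 mouse promoter windows of that length, 9.59% held GGCGCC and 82.9% held GTCT, so a Smad box match is common. CCAAT, found 3 times in the Id2 window and in neither of the others, occurred in 33.8% of all windows. TATAA occurred once in the Id3 window and in 22.8% of all windows. These matches describe letters only. The table held a window for 7 of the 10 genes, and the others with GGCGCC were Bmpr1a and Bmpr2, with 1 each. The Id3, Bmpr1a and Bmpr2 windows lie inside the Ensembl gene that was counted, whose start lies upstream of the RefSeq start.

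Per length, as CPM per kb of exon, Id1 gave the larger part of the summed Id level in E18 DKO and Id2 in the other groups, a description with no test. Id1, Id2 and Id3 summed to 191, 92.1 and 174 CPM per kb in E18 DKO, against 108, 84.4 and 73.7 CPM per kb in E18-labelled WT. The sums overlapped, since E18 DKO 2 lay within the E18-labelled WT range. Id1 made up 60.2, 54.4 and 52.4% of that sum in E18 DKO, and 19.4, 14.0 and 21.8% in E18-labelled WT. Id2 made up 30.6 ± 5.57% in E18 DKO and 74.7 ± 6.22% in E18-labelled WT (SD, n = 3 each). At E12 the sum was 87.1, 76.2 and 80.0 CPM per kb in DKO and 120, 125 and 103 CPM per kb in WT, without overlap. Id1 made up 13.8 ± 1.35% of it in E12 DKO and 22.9 ± 7.22% in E12 WT.

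**Figure D2:**
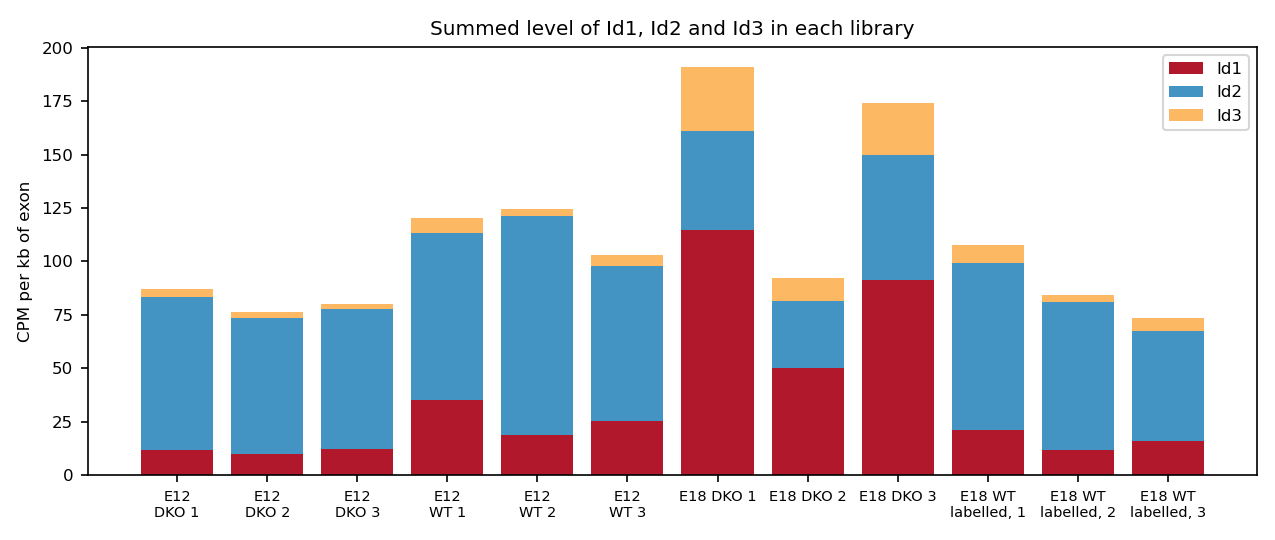
Stacked bars of the CPM per kb of exon (y axis, from 0) of Id1, Id2 and Id3 in each of the 12 libraries (x axis). Id1 takes 52.4 to 60.2% of the bar in E18 DKO and 12.8 to 29.2% in the other 9 libraries.

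The difference between the DKO effects at E18 and E12 was tested in the same fit. It was 3.63 ± 0.47 for Id1 (log2, adjusted p = 0.000348), 2.72 ± 0.61 for Id3 (adjusted p = 0.00501) and -2.22 ± 0.54 for Bmp5 (adjusted p = 0.00771). Those 3 of 10 genes were called, beside 41.9% of all genes (21.6% higher and 20.3% lower). For Bmp4 the difference was 0.85 ± 0.46 (adjusted p = 0.162).

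Bmp5 (chromosome 9, 75775364 to 75900310, plus strand) belongs with Bmp7 to a subgroup of ligands needed together for fusion of the allantois with the chorion in mice. Its level was 4.01, 2.13 and 3.38 CPM in E18 DKO, against 7.91, 8.82 and 19.99 CPM in E18-labelled WT. The groups did not overlap, and E18-labelled WT 3 stood far above the others. The log2 fold change was -1.95 ± 0.39 (adjusted p = 0.00266), and -1.41 without that library (adjusted p = 0.0073). In the E12 libraries it stood at 6.74, 6.54 and 5.04 CPM in DKO, against 4.10, 5.07 and 6.06 CPM in WT. These groups overlapped, with a log2 fold change of 0.27 ± 0.38 (adjusted p = 0.69).

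Bmp7 (chromosome 2, 172868012 to 172940321, minus strand) was at 14.1, 6.40 and 11.5 CPM in E18 DKO, against 19.1, 15.5 and 11.9 CPM in E18-labelled WT. The groups overlapped, with a log2 fold change of -0.54 ± 0.30 (adjusted p = 0.163). At E12 its level was 16.9, 11.9 and 11.5 CPM in DKO, against 14.2, 17.9 and 15.01 CPM in WT. The groups overlapped again, with a log2 fold change of -0.23 ± 0.29 (adjusted p = 0.666), which turned to 0.062 under scaling by library size alone.

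Bmp4 (chromosome 14, 46383520 to 46390669, minus strand) was the ligand with the highest level per kb in all 4 groups. Levels were 37.4, 18.0 and 43.6 CPM in E18 DKO, against 38.1, 31.4 and 34.7 CPM in E18-labelled WT. The E18-labelled WT libraries lay inside the E18 DKO range, and the log2 fold change was -0.075 ± 0.33 (adjusted p = 0.87), or 0.22 without E18 DKO 2. Its E12 values were 23.0, 24.2 and 21.4 CPM in DKO, against 29.8, 36.1 and 64.3 CPM in WT. All 3 E12 DKO libraries were below all 3 E12 WT libraries, and the log2 fold change of -0.92 ± 0.33 did not pass (adjusted p = 0.135). It was -1.13 without E12 WT 1 and passed there (adjusted p = 0.0389), in a fit that called 3199 of all 18723 genes tested. Without E12 WT 3 the log2 fold change was -0.53 (adjusted p = 0.369).

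Bmp2 (chromosome 2, 133552159 to 133562885, plus strand), the closest relative of Bmp4, was last or next to last of the 10 genes per kb in every group. Its level stood at 6.16, 2.22 and 3.98 CPM in E18 DKO, against 3.58, 4.57 and 8.08 CPM in E18-labelled WT. The groups overlapped (log2 fold change -0.40 ± 0.42, adjusted p = 0.466). E12 levels were 2.00, 2.20 and 1.86 CPM in DKO, against 5.68, 3.18 and 4.12 CPM in WT. DKO was lower without overlap, but the log2 fold change of -1.10 ± 0.42 did not pass (adjusted p = 0.154).

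The 4 ligands together reached 19.4 ± 7.48 CPM per kb in E18 DKO and 24.0 ± 2.30 CPM per kb in E18-labelled WT (SD, n = 3 each). They reached 15.7 ± 1.30 CPM per kb in E12 DKO and 25.9 ± 8.32 CPM per kb in E12 WT. Bmp4 gave 75.9% of the sum in E18 DKO and 65.1% in E18-labelled WT, and 65.6% in E12 DKO and 73.8% in E12 WT. The share of Bmp5 was 4.22 ± 0.73% in E18 DKO and 12.5 ± 5.99% in E18-labelled WT. It was 9.61 ± 0.73% in E12 DKO and 4.99 ± 0.65% in E12 WT.

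Neither receptor passed the test at either day. Bmpr1a (chromosome 14, 34410734 to 34503341, minus strand), the type I receptor, was at 90.9, 113 and 87.8 CPM in E18 DKO, against 86.1, 85.7 and 90.4 CPM in E18-labelled WT. In the E12 libraries it stood at 89.2, 91.4 and 95.5 CPM in DKO, against 119, 73.1 and 63.1 CPM in WT. The groups overlapped at both days, with log2 fold changes of 0.16 ± 0.21 at E18 (adjusted p = 0.583) and 0.11 ± 0.21 at E12 (adjusted p = 0.778). Under scaling by library size alone the E18 value was -0.20.

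Bmpr2 (chromosome 1, 59763400 to 59879014, plus strand), the type II receptor, was at 83.5, 110 and 71.1 CPM in E18 DKO, against 68.3, 62.6 and 98.3 CPM in E18-labelled WT. At E12 its level was 71.3, 69.8 and 74.1 CPM in DKO, against 95.4, 54.5 and 51.8 CPM in WT. Here too the groups overlapped at both days, and the E12 WT libraries spread far wider than the E12 DKO libraries. The log2 fold changes were 0.21 ± 0.26 at E18 (adjusted p = 0.548, and -0.15 under library size alone) and 0.093 ± 0.26 at E12 (adjusted p = 0.857). Bmpr1a made up 72.2 to 79.5% of the summed CPM per kb of the pair in every library.

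Smad6 (chromosome 9, 63953076 to 64022059, minus strand) encodes the feedback inhibitor and is itself a BMP target, and it did not pass the test at either day. Its level was 11.9, 15.2 and 16.0 CPM in E18 DKO, against 15.7, 18.7 and 17.9 CPM in E18-labelled WT. The log2 fold change was -0.28 ± 0.19 (adjusted p = 0.257), with overlapping groups. Its E12 values were 14.9, 15.5 and 14.2 CPM in DKO, against 14.0, 18.6 and 20.8 CPM in WT. The groups overlapped there as well (log2 fold change -0.26 ± 0.19, adjusted p = 0.421, or 0.036 under library size alone).

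**Figure D3:**
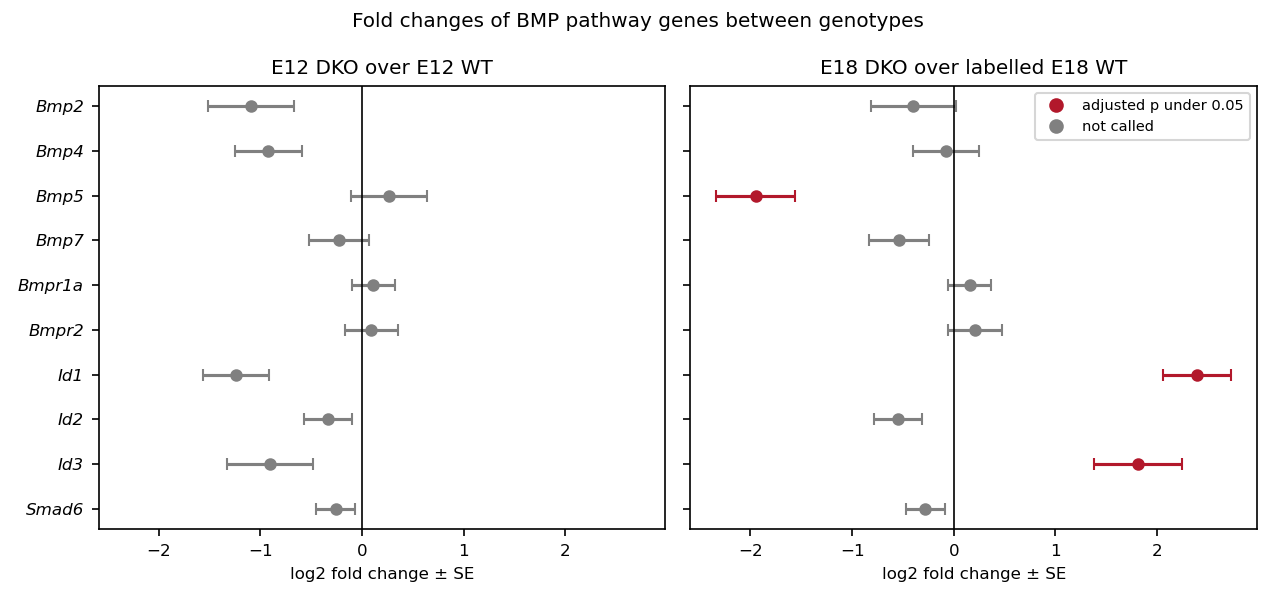
Log2 fold change with its SE (x axis) of the 10 genes (y axis) for E12 DKO over E12 WT (left) and E18 DKO over E18-labelled WT (right), from the edgeR fit. Red points have an adjusted p under 0.05: Id1 at 2.39, Id3 at 1.81 and Bmp5 at -1.95, all at E18.

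Between days, E18 DKO was set against E12 DKO, 2 groups whose globins matched their labels. That comparison shares its E18 DKO libraries with the genotype comparison at E18. Id1 was 7.63-fold higher at E18 (log2 fold change 2.93 ± 0.34, adjusted p = 0.000151) and Id3 was 7.83-fold higher (2.97 ± 0.45, adjusted p = 0.000525). These 2 of 10 genes were called, beside 46% of all genes (23.2% higher). Bmp2 was at 1.02 ± 0.42 (adjusted p = 0.0679), Bmp5 at -0.95 ± 0.38 (adjusted p = 0.0621) and Id2 at -0.57 ± 0.24 (adjusted p = 0.0716). None of those 3 passed, although the 3 E18 DKO libraries did not overlap the 3 E12 DKO libraries in any of the 5 genes (67.2% of all genes did not overlap). Within WT, 0 of the 10 genes were called between E18-labelled and E12 libraries, beside 0.953% of all genes, a background of 173 genes that was 1684 without E12 WT 1 and 35 to 38 without any 1 of the E18-labelled WT libraries. There 1 gene, Bmp5, had an unadjusted p under 0.05, beside 3292 of all 18153 genes tested. Its log2 fold change was 1.27 ± 0.38 (adjusted p = 0.13). The DESeq2 Wald test called Bmp5, beside 1223 of 18153 genes. The Bmp5 groups did not overlap there, as in 17.9% of all genes, and the log2 fold change was 0.72 without E18-labelled WT 3. Id1 was at -0.70 ± 0.32 (adjusted p = 0.282).

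Ordered by CPM per kb, Id2 led in E12 DKO (67.2), in E12 WT (84.4) and in E18-labelled WT (66.2), clear of the next gene in each. In E18 DKO, Id1 led at 85.4 and overlapped Id2 at 45.3, followed by Id3 at 21.6. Id3 was 8th of 10 in E12 DKO (2.76), 6th in E12 WT (5.18) and 5th in E18-labelled WT (6.16). Bmpr1a and Bmp4 stayed between the 2nd and 5th places in all 4 groups. Bmp2 came last in E12 DKO (0.57), in E12 WT (1.22) and in E18-labelled WT (1.52), and Bmp5 came last in E18 DKO (0.79). In E18 DKO and in both WT groups those last 2 genes overlapped.

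The remaining genes of the pathway were counted in 6 lists with 79 tested genes. At E18, 41 of them passed, 19 higher and 22 lower, a share of 51.9% beside 42.3% of all genes. At E12, 0 passed in any list, and the lowest adjusted p of a listed gene was 0.089, for the receptor Acvrl1. Of the 41 calls, 32 held in each of the 12 fits that left out 1 library. List medians of the log2 fold change at E18 were 0.23 for ligands, 0.33 for receptors, -0.16 for antagonists, 0.51 for Smads and regulators, -0.43 for response genes and -0.85 for helix-loop-helix factors, beside -0.044 over all genes. The lists were put together with earlier results of these data known, and their medians carry no test.

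Among 11 other ligands, 2 were higher and 3 lower in E18 DKO. Bmp8a was at 12.7, 19.9 and 7.19 CPM in E18 DKO, against 0.30, 0.26 and 0.45 CPM in E18-labelled WT (log2 fold change 5.28 ± 1.13, adjusted p = 0.00373). Bmp6, known as the ligand that controls hepcidin in liver, was at 14.2, 26.7 and 19.9 CPM, against 4.82, 6.30 and 3.86 CPM (2.02 ± 0.55, adjusted p = 0.0128). For each of these genes the groups were fully apart. Nodal, an activin-type ligand of the early embryo, was at -4.09 ± 0.72, and Gdf2, which encodes the circulating ligand BMP9, at -3.58 ± 0.72. Both were scarce, with at most 0.44 CPM in any E18 DKO library, and Nodal was at -4.76 without E18 DKO 3 and Gdf2 at -4.19 without E18 DKO 1. Bmp3 was at -4.07 ± 1.44 (adjusted p = 0.0408), and its call ended without any 1 of the E18 DKO libraries, E12 DKO 1, or E18-labelled WT 2 or 3. Its log2 fold change was -2.84 without E18-labelled WT 3 (adjusted p = 0.141).

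Receptors and co-receptors gave 4 higher and 1 lower of 11. Eng, the endothelial co-receptor endoglin, was at 300.1, 310.3 and 328 CPM in E18 DKO, against 53.5, 56.3 and 61.9 CPM in E18-labelled WT (2.45 ± 0.31, adjusted p = 0.000264). Acvrl1, the endothelial type I receptor for Gdf2, was at 109, 68.8 and 82.9 CPM, against 35.2, 35.9 and 37.3 CPM (1.27 ± 0.19, adjusted p = 0.000674). These groups lay fully apart. Tgfbr3, a co-receptor of wide ligand range, was at 1.13 ± 0.23, and Rgma, a BMP co-receptor, at 2.14 ± 0.50. Bmpr1b, the other type I BMP receptor, had 0 counts in E18 DKO and 36 over E18-labelled WT, which makes it at least 2.89-fold lower against a floor of 3 counts per library.

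Of 17 extracellular antagonists and modulators, 3 were higher and 3 lower. Chrd, which encodes the BMP-binding antagonist chordin, was at 88.6, 76.1 and 52.9 CPM in E18 DKO, against 3.77, 4.42 and 5.83 CPM in E18-labelled WT (3.96 ± 0.45, adjusted p = 0.000154). Fstl3, a follistatin-like antagonist, was at 2.23 ± 0.58 and Nbl1, a secreted antagonist of the DAN family, at 4.58 ± 1.23. Lower were Kcp (-2.52 ± 0.47), Bmper (-1.61 ± 0.42) and the antagonist Fst (-2.29 ± 0.64). Without E18-labelled WT 3, Nbl1 was at 5.44, Bmper at -1.03 (adjusted p = 0.0477) and Fst at -1.38 (adjusted p = 0.0712). The Fst groups overlapped, and its call also ended without E18 DKO 1 or 2.

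Of 14 Smads and intracellular regulators, 6 were higher and 3 lower, each by less than Id1 or Id3 on the log2 scale apart from Bambi. Smad1, a BMP-specific signal carrier, was at 42.5, 48.3 and 42.3 CPM in E18 DKO, against 24.5, 22.8 and 18.8 CPM in E18-labelled WT (1.01 ± 0.21, adjusted p = 0.00315). Ski, a Smad corepressor, was at 0.71 ± 0.15 and Smurf1, a ubiquitin ligase for Smads, at 0.80 ± 0.19. Bambi, a pseudoreceptor that blocks signalling, was at -2.13 ± 0.40, Zfp423, a Smad partner, at -1.22 ± 0.32, and Smad5 at -0.93 ± 0.33. The call of Smad5 ended without any 1 of the E18-labelled WT or E12 DKO libraries, and without E18 DKO 1 or 3 (adjusted p up to 0.127). Also called higher were Smad4 (0.72 ± 0.26), Smurf2 (0.70 ± 0.21) and Ppm1a (0.62 ± 0.19). Of the 12 fits that left out 1 library, Smad4 lost its call in 8 (adjusted p up to 0.167), Smurf2 in 5 and Ppm1a in 2. Under scaling by library size alone this list had 1 higher and 4 lower, and Ski and Smurf1 were no longer called.

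Of 19 other genes known to respond to BMP, 4 were higher and 7 lower. Atoh8, a target in endothelium and liver, was at 9.78, 4.86 and 9.48 CPM in E18 DKO, against 1.85, 1.58 and 2.05 CPM in E18-labelled WT (2.14 ± 0.31, adjusted p = 0.000556). Hamp, which encodes hepcidin, had 219 counts over E18 DKO and 3 over E18-labelled WT, a ratio of 103 (95% counting interval 34.9 to 506). Its fitted log2 fold change, which depends on the prior count at such low counts, was 6.56, and 7.50 without E18-labelled WT 3. Hand2 was at 1.06 ± 0.24, and Fhl2 at 0.63 ± 0.20, whose call ended without E18 DKO 1 or 2 or E18-labelled WT 1 or 2 (adjusted p up to 0.0985). Lower were Gata3 (-4.03 ± 0.76), Msx2 (-3.46 ± 0.81), Msx1 (-2.90 ± 0.64), Tbx3 (-2.27 ± 0.42), Hand1 (-1.74 ± 0.44), Id4 (-1.30 ± 0.35) and Tnfrsf11b (-0.94 ± 0.29). The call of Tnfrsf11b ended without E18 DKO 1 or 2 or E18-labelled WT 3 (adjusted p up to 0.0789). Without E18-labelled WT 3, Gata3 was at -3.25, Msx2 at -2.32 and Msx1 at -2.16, all still called. Without E18 DKO 3, Msx2 was at -4.47, and without E18-labelled WT 1, Tbx3 was at -1.65.

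Among 7 E proteins and other helix-loop-helix factors, 0 were higher and 5 lower. Binding to Id proteins was not measured for any of them. Twist1 was at 4.18, 2.47 and 3.76 CPM in E18 DKO, against 26.5, 9.79 and 15.2 CPM in E18-labelled WT (-2.31 ± 0.45, adjusted p = 0.00229). Twist2 was at -3.29 ± 0.66, Tal1, a blood and vessel factor, at -2.29 ± 0.53 and the E protein gene Tcf12 at -0.85 ± 0.21. Tcf3, a second E protein gene, was at -0.75 ± 0.26 (adjusted p = 0.0393) and lost its call without any 1 of the E18 DKO or E12 DKO libraries, E12 WT 2, or E18-labelled WT 1 or 3 (adjusted p up to 0.113). Tcf4, also an E protein gene, was at -0.049 ± 0.24 and did not pass (adjusted p = 0.885). Twist2 was at -4.11 without E18 DKO 3. Twist1 and Hand1 are also members of the mesenchyme marker list given below. Primitive red cell markers summed to 17.3 to 19.0 CPM in E18 DKO and 6049 to 7711 CPM in E18-labelled WT, with 3 of 3 lower. Definitive red cell markers summed to 1015 to 1898 CPM and 2286 to 5186 CPM, with 5 of 7 lower, beside 21.8% of all genes. Whether red cell content bears on Tal1 was not tested.

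**Figure D4:**
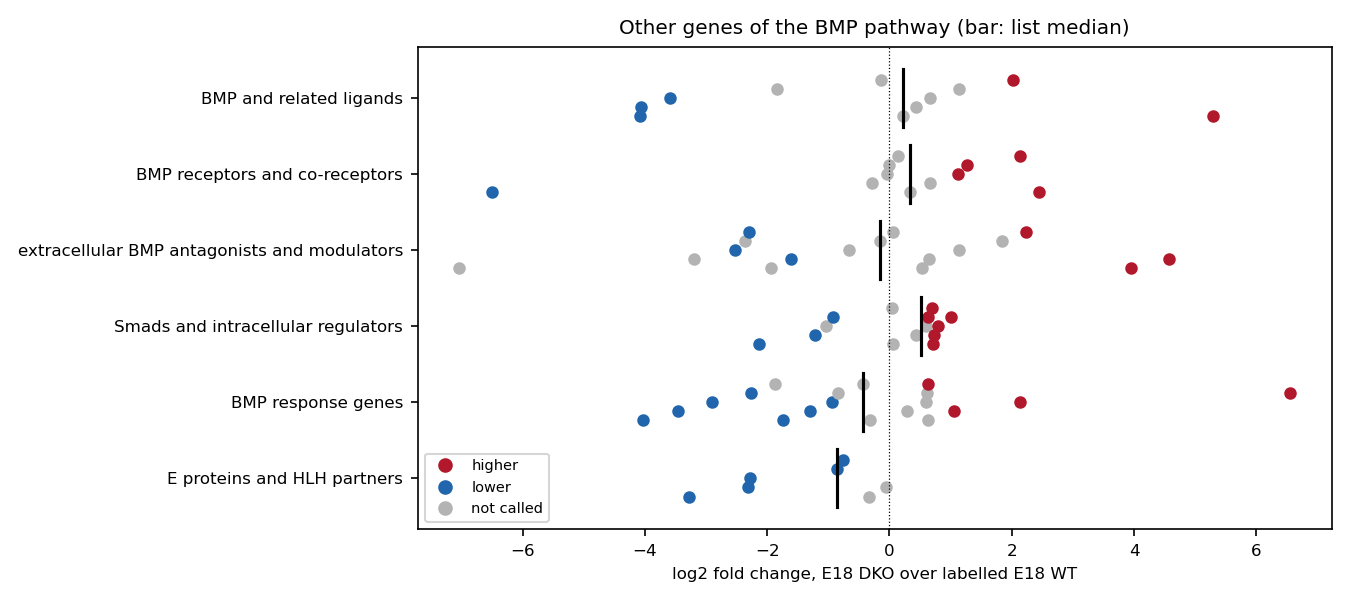
Log2 fold change, E18 DKO over E18-labelled WT (x axis), of the tested genes of 6 BMP pathway lists (y axis). Red and blue points passed the test as higher or lower, grey points did not, and the black bar is the list median. Lists hold 7 to 19 genes, and both directions occur in each except the helix-loop-helix factors, where 5 were lower and 0 higher. Points without counts in 1 group, such as Bmpr1b, are placed by the fit's prior count.

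Marker lists of other cell types and states also held calls at E18, and their part in the results was not tested. Their counts stand beside 20.5% of all genes called higher and 21.8% called lower in that comparison. Summed immediate early genes, which can rise when tissue is handled, lay at 1135 to 1641 CPM in E18 DKO and at 262 to 419 CPM in E18-labelled WT, with 10 of 12 genes higher. They lay at 214 to 251 CPM in E12 DKO and at 247 to 835 CPM in E12 WT, where E12 WT 1 was highest, as it was for Id1. E12 WT 2 and 3 ranked in opposite order, at 398 and 247 CPM in that sum and 21.7 and 29.3 CPM for Id1. In E18 DKO 1, 2 and 3 the sum was 1641, 1135 and 1234 CPM, the same order as for Id1 and Id3. In E18-labelled WT it was 303, 262 and 419 CPM, highest in replicate 3, whereas Id1 and Id3 were highest in replicate 1. These orders were not tested. E12 WT 1 was also highest of the E12 WT libraries in the sum of macrophage markers, at 1124 CPM. Endothelial markers summed to 461 to 546 CPM in E18 DKO and 238 to 427 CPM in E18-labelled WT, with 4 of 10 genes higher and 1 lower. At E12 they summed to 253 to 306 CPM in DKO and 348 to 392 CPM in WT, with 0 of 10 called. Every gene of those lists had counts in all 12 libraries.

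Macrophage markers summed to 1354 to 1967 CPM in E18 DKO and 422 to 547 CPM in E18-labelled WT, with 7 of 10 higher and 2 lower. Mesenchyme markers summed to 2765 to 5184 CPM in E18 DKO and 10801 to 23605 CPM in E18-labelled WT, with 2 of 10 higher and 6 lower. Markers of dividing cells summed to 40.6 to 61.4 CPM in E18 DKO and 854 to 989 CPM in E18-labelled WT, with 10 of 10 lower. Visceral yolk sac endoderm markers summed to 83498 to 166864 CPM in E18 DKO and 54139 to 82444 CPM in E18-labelled WT, with 4 of 10 higher and 0 lower. Stratified epidermis markers summed to 448 to 666 CPM in E18 DKO and 19.8 to 191 CPM in E18-labelled WT, with 4 of 7 higher and 1 lower. Among them Krt14 lay at 281 to 455 CPM in E18 DKO and 0.38 to 8.59 CPM in E18-labelled WT, while Krt5 lay at 0.76 to 0.88 CPM in E18 DKO and 14.4 to 166 CPM in E18-labelled WT, and Krt1 was at 0 in E18 DKO. Smooth muscle markers overlapped in their sums, with 1 of 6 higher. The summed levels of the other 7 marker lists named beside it did not overlap between E18 DKO and E18-labelled WT. In bulk tissue, fewer cells of a type and less RNA per cell cannot be told apart.

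**Figure D5:**
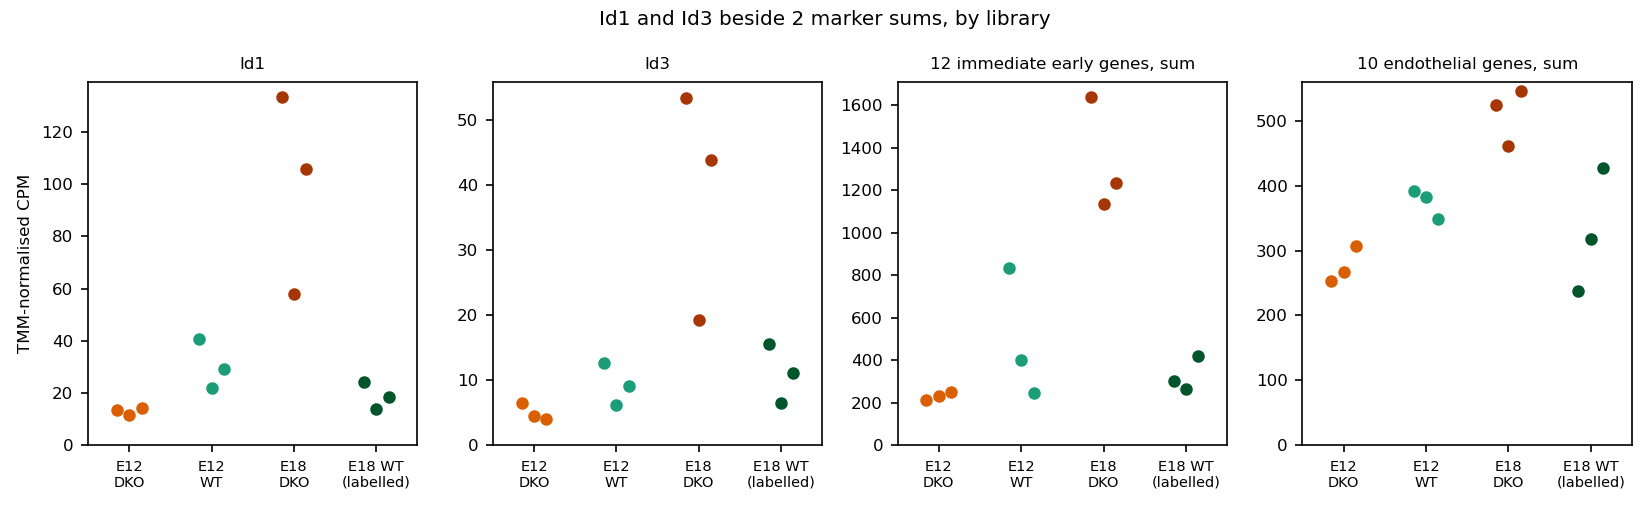
TMM-normalised CPM (y axes, from 0) of Id1, Id3, the sum of 12 immediate early genes and the sum of 10 endothelial genes, per library and group (x axis). E18 DKO is highest in all 4 panels, and the immediate early sum is 1135 to 1641 CPM there.

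The genes with the pattern most like each of the 10 were sought among 11199 genes, by the root mean square difference of centred log2 values over all 12 libraries. For Id1 they were Gadd45b (0.17), Lrrc8a (0.22) and Rras (0.25), against a spread of 1.10 for Id1 itself. Gadd45b was also the closest to Id3 (0.34), followed by Psmb8 (0.36) and Mterf4 (0.37). Gadd45b averaged 142 CPM in E18 DKO and 34.1 CPM in E18-labelled WT, and 21.8 CPM in E12 DKO and 47.7 CPM in E12 WT. For Bmp5 the closest were Lypd6 (0.21), Cntln (0.22) and Pbx3 (0.23). Bmpr1a had the closest match of all 10, Itch, at 0.055 against a spread of 0.23. These distances describe the same 12 libraries and carry no test.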

How the data were processed

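Membrane RNA was sequenced in 12 mouse libraries prepared with a stranded mRNA kit, per the labels. The deposited values are raw gene counts per Ensembl gene, counted by the authors with Ensembl release 86 and strand option 2, per the file headers. The submitters' processing notes name Trimmomatic 0.36, STAR 2.4.2a, Subread 1.5.0 and GRCm38. The files of 11 libraries were identical to 1 column of the series table, and the counts of E12 DKO 1 came from that table. The members and gene lists were chosen with earlier results of these data known.

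Genes were filtered with filterByExpr, and counts were scaled with TMM and fitted in edgeR 4.0.16 (R 4.3.3) by a quasi-likelihood fit to all 12 libraries with 4 group means, which left 8 residual degrees of freedom (biological coefficient of variation 0.373). P-values were Benjamini-Hochberg adjusted over all 18153 genes tested and called under 0.05. The procedure was also run on simulated counts. These had the same spread for every gene and no outlying library, so they do not cover libraries such as E12 WT 1. Genes named from the pathway lists were up to 4 per list with the lowest adjusted p in each genotype comparison. Bmp3, Bmpr1b, Nbl1, Fst, Smad4, Smad5, Smurf2, Ppm1a, Zfp423, Hand1, Hand2, Msx1, Msx2, Id4, Fhl2, Tnfrsf11b, Tcf3 and Tcf4 were named after their values had been seen. The same holds for the markers Gabrp, Krt1, Krt5, Krt14 and Krt18. The genes most like a member had the smallest root mean square difference of centred log2(CPM + 1), among tested genes averaging at least 5 CPM. CPM per kb divides by the exon length in the files. Floors and intervals (95%) cover counting error only. Reads aligned to several places were not counted, so near-identical copies can lose reads. Alternatives were other scalings, DESeq2 1.42.0, limma 3.58.1 voom, other filters, a 2-fold threshold, a replicate block, only the groups compared, and each library left out. Promoters are from RefSeq.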

Additional observations from a re-analysis of the deposited data

Results flagged for a closer look

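Id1, Id3 and Bmp5 were each set apart because the DKO effect differed between E18 and E12 by a test of that difference in the edgeR fit. The difference was 3.63 for Id1 on the log2 scale, 2.72 for Id3 and -2.22 for Bmp5. It kept its call for all 3 genes in each of the other 21 settings that allow the test, from 2.95 to 3.90 for Id1, from 2.02 to 3.04 for Id3 and from -2.88 to -1.54 for Bmp5. The E18 side of this difference uses the libraries labelled E18 WT, which carried embryonic globins, so that stage and genotype cannot be told apart in it. The E12 side may mix them too, through E12 WT 1, where the embryonic share of beta-globin counts was 14.8%.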

How the results depend on the processing

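The E18 calls of Id1, Id3 and Bmp5 held in all 22 alternatives, from 2.03 to 2.66 for Id1, from 1.45 to 2.14 for Id3 and from -2.32 to -1.41 for Bmp5 (log2). Counts of called genes among the 10 moved as follows. At E12 (0 called) 1 was called by the DESeq2 Wald test, beside 2073 of all 18153 genes tested. Without E12 WT 1 and E18 WT 3 together 1 was called, beside 3753 of 18526 genes. Leaving out 1 library gave 0 to 1, the most without E12 WT 1, where 3199 of 18723 genes were called. At E18 (3 called) 6 were called under library size alone, which added Bmp7, Smad6 and Id2, beside 8397 of 18153 genes. Leaving out 1 library gave 3 to 4 there. Between E18 DKO and E12 DKO (2 called) 4 were called under library size alone, beside 8756 of 18153 genes. The DESeq2 Wald test called 4, beside 9201 of 18153 genes. Without E12 WT 1 and E18 WT 3 together 5 were called, beside 10371 of 18526 genes. Leaving out 1 library gave 2 to 4, the most without E18 DKO 2, where 7615 of 18685 genes were called. Between the WT groups (0 called) the DESeq2 Wald test called 1, beside 1223 of 18153 genes. For the difference of effects leaving out 1 library gave 3 to 4, beside 6198 to 8528 of all genes. Directions turned only for genes that were not called. Under library size alone Bmp7 was at 0.062 and Smad6 at 0.036 at E12, and Bmpr1a at -0.20 and Bmpr2 at -0.15 at E18. With 1 library left out, E12 values ran from -0.061 to 0.44 for Bmpr1a (lowest without E12 WT 3) and from -0.062 to 0.44 for Bmpr2 (below 0 without E12 WT 2 or 3). E18 values ran from -0.80 to 0.0054 for Bmp2 (above 0 without E18 WT 3, and 0.0042 without E12 WT 1 and E18 WT 3 together) and from -0.33 to 0.22 for Bmp4 (above 0 without E18 DKO 2). The cause of these changes was not tested. The fit without both libraries was chosen after seeing the data.

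Library size alone moved the median of all genes to -0.41 at E18 (-0.044 with TMM) and to 0.22 at E12 (-0.077 with TMM), and the share of E18 calls that were higher to 28.4% from the 48.5% given by TMM. Over all genes, the E12 count of 64 was 2073 by the DESeq2 Wald test, 0 when only those groups were fitted and 5 with the replicate block. With 1 library left out that count ran from 1 (without E12 DKO 2) to 3199 (without E12 WT 1). The E18 count of 7678 was 5833 to 9452 with 1 library left out, the 8349 between the DKO days 6426 to 10014, and the 173 between the WT groups 35 (without E18 WT 2) to 1684 (without E12 WT 1). Replicate numbers did not pair the libraries, since same-numbered libraries correlated from -0.18 to 0.29 in their deviations, and with the replicate block the called members stayed at 0 at E12, 3 at E18, 2 between the DKO days, 0 between the WT groups and 3 for the difference.

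Without E12 WT 1 and E18 WT 3 together, the E18 counts of the pathway lists (higher and lower) were 4 and 3 ligands, 4 and 1 receptors, 7 and 2 antagonists, 6 and 4 Smads and regulators, 4 and 6 response genes, and 0 and 5 helix-loop-helix factors. At E12 they were 1 and 0 ligands, 3 and 1 Smads and regulators, 0 and 2 response genes, and 0 in the other 3 lists. Over all genes that fit called 9159 of 18526 at E18 and 3753 of 18526 at E12. Under library size alone the E18 counts were 2 and 3, 4 and 2, 3 and 6, 1 and 4, 3 and 7, and 0 and 5, in the same order of lists. That scaling called 8397 of all 18153 genes at E18, 2382 higher and 6015 lower. Bmp2, at 1.86 to 8.08 CPM, and Bmp5, at 2.13 to 19.99 CPM, had wider standard errors than Bmp4 and Bmp7 in each comparison.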
